A study of Mus musculus with 16 samples.

Results

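Small nucleolar RNAs (snoRNAs) guide the chemical modification of ribosomal RNA, the C/D box class for 2'-O-methylation and the H/ACA class for pseudouridylation. In mammals most of them are cut from the introns of host genes. Some hosts code for proteins, while others make a spliced RNA that is noncoding and mostly short-lived, and many of those spliced RNAs are known substrates of nonsense-mediated decay. Several hosts are also known to start with a pyrimidine tract of the kind found on ribosomal protein mRNAs. YTHDF2 is a cytoplasmic protein that binds N6-methyladenosine (m6A) in RNA and recruits deadenylases, which starts decay.

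The genes described are 9 noncoding snoRNA hosts of the mouse, Zfas1, Gas5, Snhg1, Snhg3, Snhg5, Snhg6, Snhg8, Snhg12 and Snhg15, taken by symbol out of 55401 genes in the count table. The question was whether the lower level of Zfas1 in Ythdf2-KO libraries is shared by the class. Zfas1 was selected on its low input CPM in Ythdf2-KO relative to WT libraries, so its values are given with no test. The other 8 were listed with results of these libraries known, so their values describe the genes that were listed, and hosts outside the list are given further on. All 9 had enough reads to enter the test, which covered 18969 genes.

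The cells were MC38, a line derived from a mouse colon adenocarcinoma. The input libraries, polyadenylated and fragmented RNA before any pull-down, were 3 of Ythdf2-KO cells tagged gY2 and 3 of WT cells tagged gNC. The labels name no clone and do not say whether the WT cells carry a control guide, nor whether replicates are separate cultures, so p-values measure only the spread between these samples. Peak lists were deposited for m6A immunoprecipitation (3 libraries of Ythdf2-KO and 3 of WT cells) and for YTHDF2 RNA immunoprecipitation (RIP, 2 libraries of MC38 cells with 2 inputs).

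Input libraries held 48736352 to 50959555 reads in the KO-labelled group and 45441281 to 50885512 in WT. Whole-gene reads of Ythdf2 did not check the knockout, since they were 59.8 to 67.9 CPM (counts scaled to library size) in the 3 KO-labelled libraries and 55.6 to 68.6 CPM in the 3 WT libraries, so the groups are called by their labels. KO-labelled replicate 1 stood apart from its group: on the first principal component (51.4% of the variance) it was at -10.4, with the other KO-labelled libraries at 64.1 and 63.2 and the WT libraries at -39.2 to -38.6. None of 7 colon epithelium markers exceeded 1 CPM, with Krt18 and Epcam at 0 reads in every library, and the 7 summed to 0.389 to 0.589 CPM in KO-labelled and 0.565 to 0.679 CPM in WT libraries. All 4 fibroblast markers exceeded 1 CPM, at a sum of 200 to 229 CPM in KO-labelled and 227 to 244 CPM in WT libraries, and Dcn, a matrix proteoglycan, was lower in the KO-labelled group (log2 fold change -0.82, edgeR adjusted p = 0.0355). The other 3 did not pass: Pdgfra, most of the sum, at 0.23, Lum at -1.70 and Col1a1 at -0.93 (edgeR adjusted p = 0.226, 0.0990 and 0.379). No leukocyte marker of 6 exceeded 1 CPM (Adgre1 at 0; sums of 0.170 to 0.447 CPM in KO-labelled and 0.0970 to 0.391 CPM in WT libraries), and of 3 endothelial markers 1 did (sums of 1.32 to 2.68 CPM in KO-labelled and 0.978 to 1.44 CPM in WT libraries). The part of these marker differences and of KO-labelled replicate 1 in the host gene values was not tested beyond leaving that library out. In bulk RNA, fewer cells of a type and less RNA per cell cannot be told apart.

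The hosts differ in what they carry and in how they begin. By the GENCODE M21 annotation (GRCm38, the assembly of mm10), the 9 hosts hold 33 snoRNA gene models on their own strand. Counting overlapping models once, Gas5 held 9 snoRNAs, Snhg1 8, Snhg12 4, Zfas1 3, Snhg3 and Snhg5 2 each, and Snhg6, Snhg8 and Snhg15 1 each. The RefSeq table of transcription starts (GRCm38.p6) gave 9 starts for 8 of the hosts and none for Snhg6. The following windows of 40 bases, 20 before the start and 20 from it, show Zfas1 and the 5 starts nearest to the pyrimidine pattern. Capitals mark a C followed by at least 4 bases that are each C or T, on the strand of the gene.
Zfas1: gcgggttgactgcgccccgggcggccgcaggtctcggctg
Gas5 second start: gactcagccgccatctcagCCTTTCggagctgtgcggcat
Snhg8: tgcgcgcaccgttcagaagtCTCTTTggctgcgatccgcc
Snhg12: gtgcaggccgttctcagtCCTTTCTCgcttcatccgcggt
Snhg3: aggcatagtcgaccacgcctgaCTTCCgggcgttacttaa
Snhg5: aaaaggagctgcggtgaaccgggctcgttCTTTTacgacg
The Zfas1 window lies at chr2:167062914-167062953 (plus strand), Gas5 at chr1:161035146-161035185 (plus), Snhg8 at chr3:123508317-123508356 (minus), Snhg12 at chr4:132308658-132308697 (plus), Snhg3 at chr4:132353667-132353706 (minus) and Snhg5 at chr9:88522878-88522917 (minus). Exactly at the annotated start the pattern stood in 2 of the 9 starts, the second start of Gas5 and that of Snhg8, beside 2.51% of all 32851 starts in the table. A run beginning within 10 bases of the start was present in 5 of the 9, beside 30.7% of all starts. The window of Zfas1, the host with the lowest ratio of the 9, had no such run, and these letters say nothing of where transcription began in these cells.

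Zfas1 (ENSMUSG00000074578.14, chr2:167062934-167065862, plus strand) is the noncoding host of snoRNAs of the Snord12 group and lies beside Znfx1. It had 107, 93.0 and 92.1 CPM in the KO-labelled libraries, against 185, 196 and 207 CPM in the WT libraries. The highest KO-labelled library was 42.3% below the lowest WT library. Zfas1 was selected on these same libraries, so this gap and the interval that follows describe it and test nothing. The log2 fold change (KO-labelled over WT) was -1.01 (SE 0.09, 95% interval -1.21 to -0.81), so the KO-labelled mean of 97.2 ± 8.10 CPM was 49.7% of the WT mean of 196 ± 11.1 CPM (SD, n = 3 each). Without KO-labelled replicate 1 the log2 fold change was -1.08.

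Of the other 8 hosts, 5 fell in the KO-labelled libraries and 0 rose, while 3 did not pass the test (edgeR quasi-likelihood test, Benjamini-Hochberg adjusted over all 18969 genes, threshold 0.05). Over all genes 1.54% were lower and 4.54% changed in either direction. All 9 log2 fold changes were below 0, with a median of -0.71 over the 9 and -0.68 without Zfas1, beside -0.01 over all genes tested, of which 50.7% were below 0. In 7 of the 8 hosts besides Zfas1 every KO-labelled library lay below every WT library, an arrangement found in 16.2% of all genes. Genes that are not protein-coding leaned down as a class. Of 5665 tested, 3636 were below 0 and 1157 had that arrangement, with a median log2 fold change of -0.16. With 0 hosts rising, 0 of the 8 were higher at an unadjusted p under 0.05 and 0 by DESeq2, while 7 were lower at that unadjusted p (12.6% of all genes) and 7 by DESeq2 (5.97% of all genes). With no filter on low counts 1 of the 8 passed, Gas5, and with the replicate number as a block 0 passed (edgeR adjusted p from 0.0514 to 0.176). Calls over all genes fell too, to 0.317% with no filter and 0.374% with the block, in either direction.

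**Figure D1:**
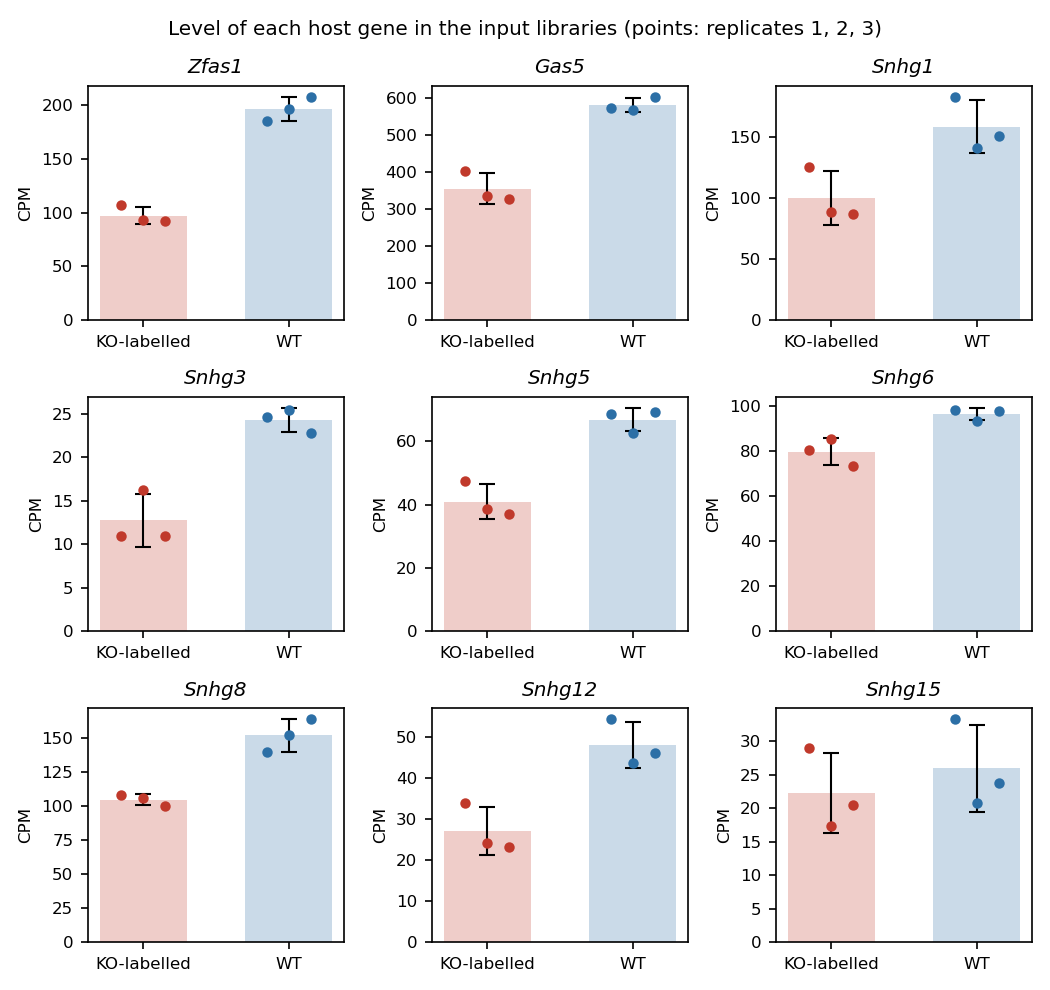
Level of the 9 host genes (y axis, CPM on scaled library sizes) in KO-labelled (red, left) and WT (blue, right) input libraries; points are replicates 1, 2 and 3 in that order, bars are group means and error bars the SD (n = 3 each). The groups are apart in 8 of the 9 genes and overlap in Snhg15.

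Among the C/D box hosts, Gas5 (ENSMUSG00000053332.13, chr1:161034422-161038539, plus strand), named for its rise in growth-arrested cells, was the most abundant of the 9 in reads. It had 402, 335 and 327 CPM in the KO-labelled libraries, against 572, 565 and 601 CPM in the WT libraries. No KO-labelled library reached a WT one, and the fall had a log2 fold change of -0.71 (SE 0.09, 95% interval -0.93 to -0.49, edgeR adjusted p = 0.0227). Gas5 made up 41.6% to 43.5% of the reads of the 9 hosts in each library. Its RefSeq start that begins at the pyrimidine run is the second of 2.

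Snhg5 (ENSMUSG00000097195.10, chr9:88521050-88522929, minus strand), the host of Snord50a and Snord50b, had 47.3, 38.6 and 36.9 CPM in the KO-labelled libraries, against 68.5, 62.6 and 69.2 CPM in the WT libraries. It fell by a log2 fold change of -0.71 (SE 0.11, 95% interval -0.96 to -0.45, edgeR adjusted p = 0.0298), a size close to that of Gas5. Snhg1 (ENSMUSG00000108414.1, chr19:8723475-8726443, plus strand) carries Snord22 and 7 further snoRNAs. It had 126, 88.5 and 86.9 CPM in the KO-labelled libraries, against 183, 141 and 151 CPM in the WT libraries. KO-labelled replicate 1 was the highest of its group and WT replicate 1 the highest of the other, the groups did not overlap, and the log2 fold change of -0.66 (SE 0.17, 95% interval -1.04 to -0.27) did not pass the test (edgeR adjusted p = 0.0625). Snhg6 (ENSMUSG00000098234.7, chr1:9941959-9944118, minus strand), the host of Snord87, had 80.3, 85.6 and 73.6 CPM in the KO-labelled libraries, against 98.3, 93.6 and 97.6 CPM in the WT libraries. Its groups were apart by a small gap, and its log2 fold change of -0.27 (SE 0.08, 95% interval -0.45 to -0.09) did not pass the test (edgeR adjusted p = 0.0754).

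Of the hosts that carry H/ACA snoRNAs alone, Snhg3 and Snhg8 fell, and Snhg15 did not pass. Snhg3 (ENSMUSG00000085241.7, chr4:132348014-132353686, minus strand), the host of Snora73a and Snora73b, had 10.96, 16.3 and 11.03 CPM in the KO-labelled libraries, against 24.6, 25.5 and 22.8 CPM in the WT libraries. It fell by a log2 fold change of -0.93 (SE 0.17, 95% interval -1.33 to -0.53, edgeR adjusted p = 0.0369), and KO-labelled replicate 2, not replicate 1, was the highest of its group. Snhg8 (ENSMUSG00000104960.1, chr3:123507552-123508404, minus strand), the host of Snora24, had 108, 106 and 101 CPM in the KO-labelled libraries, against 140, 152 and 164 CPM in the WT libraries. Its KO-labelled libraries lay close together, and the fall was -0.54 (SE 0.08, 95% interval -0.72 to -0.35, log2 scale, edgeR adjusted p = 0.0292).

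Snhg12 (ENSMUSG00000086290.9, chr4:132308623-132311024, plus strand) carries both classes, Snora16a, Snora44, Snora61 and Snord99. It had 33.8, 24.2 and 23.2 CPM in the KO-labelled libraries, against 54.2, 43.5 and 45.9 CPM in the WT libraries, and fell by a log2 fold change of -0.82 (SE 0.16, 95% interval -1.21 to -0.44, edgeR adjusted p = 0.0418). Snhg15 (ENSMUSG00000085156.8, chr11:6525591-6528760, minus strand), the host of Snora9, had 28.9, 17.4 and 20.5 CPM in the KO-labelled libraries, against 33.3, 20.7 and 23.8 CPM in the WT libraries. In both groups replicate 1 was the highest, the groups overlapped, and the log2 fold change of -0.22 (SE 0.24, 95% interval -0.77 to 0.33) did not pass the test (edgeR adjusted p = 0.569). That interval holds 0 and also the values of Gas5, Snhg1, Snhg5, Snhg6 and Snhg8, so these libraries do not separate Snhg15 from either.

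Leaving out single libraries changed the calls but not the direction. KO-labelled replicate 1 was the highest KO-labelled library in 7 of the 9 hosts and replicate 3 the lowest in 7. Without KO-labelled replicate 1, 7 of the 8 hosts passed (all but Snhg15), with log2 fold changes of -0.81 in Gas5, -0.85 in Snhg1, -0.83 in Snhg3, -0.82 in Snhg5, -0.28 in Snhg6, -0.56 in Snhg8, -1.01 in Snhg12 and -0.45 in Snhg15. In that fit 35.4% of all genes were called, against 4.54% with all libraries, so more hosts passing is no result about the hosts. Without KO-labelled replicate 2 or 3, or WT replicate 2 or 3, 0 of the 8 passed, and without WT replicate 1 only Snhg8 did. The fits with 0 hosts called 0 to 5 genes in the whole table. In each of those fits 7 of the 8 still had an unadjusted p under 0.05. So did 3457 to 4011 genes in either direction, of the 19469 to 19733 genes fitted. Every log2 fold change of the hosts stayed below 0. Snhg15 came nearest to 0, at -0.07 without KO-labelled replicate 2 and -0.01 without WT replicate 1. The intervals of Snhg1, Snhg3 and Snhg12 held the value of Zfas1, and whether any host differed from Zfas1 was not tested.

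Summed over the 9 hosts, the level was 944, 804 and 771 CPM in the KO-labelled libraries, against 1358, 1300 and 1382 CPM in the WT libraries. Per kilobase of annotated exon, the order of levels in KO-labelled libraries was led by Snhg8 with 123 ± 4.55 CPM per kb, Gas5 with 94.3 ± 11.1 and Snhg6 with 69.7 ± 5.23 (SD, n = 3). Snhg1 at 33.8 ± 7.40 and Zfas1 at 33.2 ± 2.76 CPM per kb did not differ beyond their spread there, nor did Snhg15 at 16.4 ± 4.39, Snhg3 at 12.9 ± 3.12 and Snhg12 at 11.3 ± 2.43. In WT libraries Snhg8 again led with 178 ± 14.0 CPM per kb, before Gas5 with 154 ± 5.07, Snhg6 with 84.2 ± 2.24 and Zfas1 with 66.8 ± 3.80, and Snhg1 at 53.3 ± 7.29 came below Zfas1. The annotated exons of Zfas1, Snhg1, Snhg8 and Snhg12 cover 100.0% of the gene span, introns included through retained-intron models, so these per-length levels are low where only spliced RNA was made. A similar limit holds for Gas5 (91.3%) and Snhg5 (92.0%). The exons of Snhg6, Snhg15 and Snhg3 cover 53.1%, 42.9% and 17.4%, so the order of levels between hosts depends on these models.

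**Figure D2:**
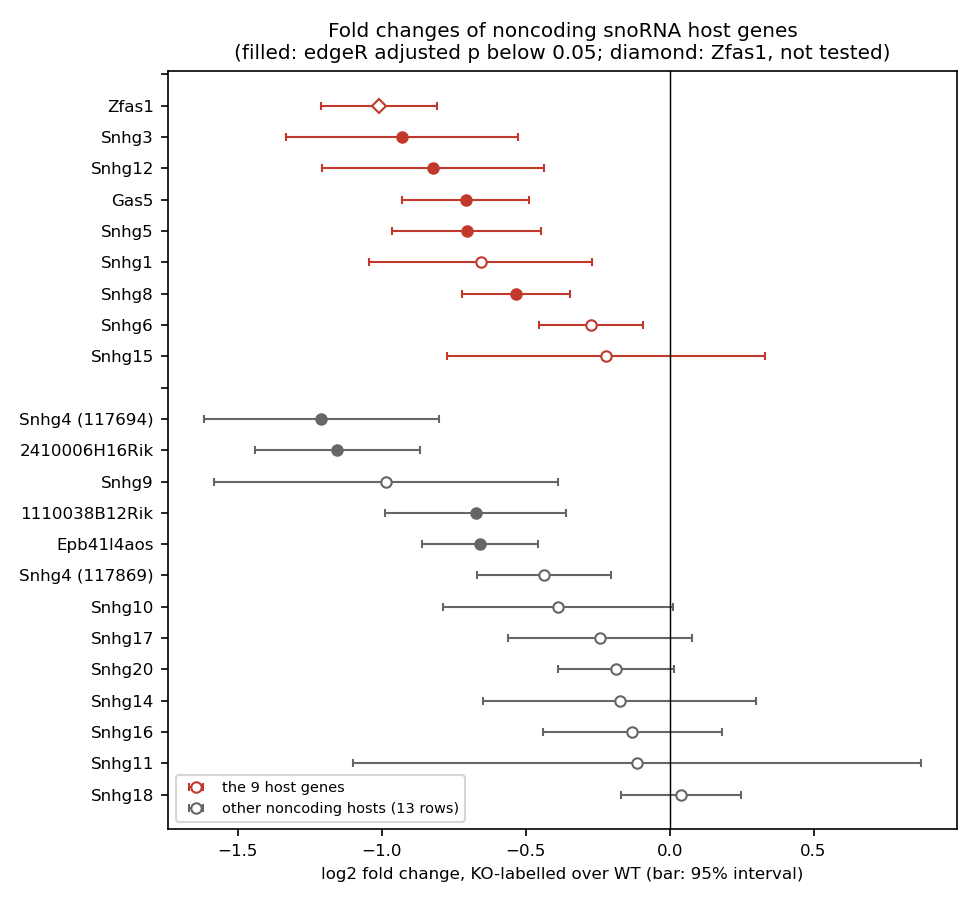
Log2 fold change (x axis, KO-labelled over WT; bars are 95% intervals, n = 3 each) of the 9 host genes (red, above) and of 13 rows of other noncoding hosts (grey, below). Filled points passed edgeR's adjusted threshold of 0.05. The open diamond is Zfas1, for which no test is reported because it was selected on these libraries. Snhg4 has 2 rows, told apart by the end of their gene identifiers. The 9 hosts lie at -1.01 to -0.22.

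Noncoding hosts outside the 9 gave a mixed picture. Of 13 rows tested (12 symbols, Snhg4 having 2 rows), 4 fell, 0 rose and 9 did not pass, with a median log2 fold change of -0.39. Over all genes 1.54% were lower. At an unadjusted p under 0.05, 6 rows were lower and 0 higher, beside 12.6% lower and 16.9% higher of all genes. DESeq2 called 6 rows lower and 0 higher, beside 5.97% lower and 11.2% higher of all genes. Of the 13 rows 12 were below 0, beside 50.7% of all genes. In 8 of them every KO-labelled library lay below every WT library, beside 16.2% of all genes. 2410006H16Rik, which holds 3 annotated snoRNAs, had 105, 87.6 and 87.0 CPM in the KO-labelled libraries, against 177, 213 and 231 CPM in the WT libraries (edgeR adjusted p = 0.0164, log2 fold change -1.15, SE 0.12). As with Zfas1, every KO-labelled library lay below every WT library. 1110038B12Rik averaged 138 ± 21.6 CPM in KO-labelled and 219 ± 25.6 CPM in WT libraries (SD, n = 3 each; log2 fold change -0.67, edgeR adjusted p = 0.0417). Epb41l4aos averaged 35.2 ± 1.33 CPM in KO-labelled and 55.6 ± 4.34 CPM in WT libraries (SD, n = 3 each; -0.66, edgeR adjusted p = 0.0227). The Snhg4 rows gave -1.21 (edgeR adjusted p = 0.0271) and -0.44 (edgeR adjusted p = 0.0521), and since they share a symbol the split of reads between them is uncertain. The log2 fold changes of Snhg16 (-0.13), Snhg17 (-0.24), Snhg18 (0.04) and Snhg20 (-0.19) did not pass, with intervals that all held 0. Snhg20 alone of these had every KO-labelled library below every WT library. Snhg9, named after its values were seen, did not pass either (log2 fold change -0.99, edgeR adjusted p = 0.0652). Its groups were apart at low levels, 1.13 ± 0.285 CPM in KO-labelled and 2.24 ± 0.385 CPM in WT libraries (SD, n = 3 each). By annotation there were 24 tested noncoding hosts besides the 9, which include some of these symbols. Of them 3 fell (2410006H16Rik, 1110038B12Rik and Epb41l4aos, already counted above), 1 rose and 20 did not pass. Of all 5665 tested genes that are not protein-coding, 71 fell and 18 rose. The 24 had 8 above 0 and a median of -0.20, beside -0.16 for all genes that are not protein-coding. An unadjusted p under 0.05 was found for 7 lower and 1 higher, and DESeq2 called 7 lower and 1 higher. The 1 that rose was AI506816, named after its values were seen, which was higher in the KO-labelled libraries, with 216, 219 and 217 CPM, against 142, 135 and 124 CPM in WT (log2 fold change 0.70, edgeR adjusted p = 0.0164).

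Protein-coding snoRNA hosts did not show the pattern as a group. Of 223 tested, 3 fell, 2 rose and 218 did not pass, and their median log2 fold change was 0.02. Over all genes 1.54% were lower and 4.54% changed in either direction. Those that fell were Taf1d (-0.40, edgeR adjusted p = 0.0400), a subunit of the RNA polymerase I factor SL1 whose gene holds 8 snoRNAs, Etl4 (-0.76, edgeR adjusted p = 0.0342) and the Snhg4 row that the annotation calls protein-coding, already counted among the noncoding hosts. Those that rose were Uchl5, a proteasome-associated deubiquitinase (0.58, edgeR adjusted p = 0.0318), and Map2, a microtubule-associated protein (0.55, edgeR adjusted p = 0.0405). The 30 ribosomal protein genes among them, which also start with a pyrimidine tract, gave 0 rising and 0 falling, with a median of -0.09 and 25 of 30 below 0. At an unadjusted p under 0.05, 9 of those 30 were lower and 0 higher, beside 12.6% lower and 16.9% higher of all genes. DESeq2 called 3 lower and 0 higher, beside 5.97% lower and 11.2% higher of all genes. Among them Rpl13a had the log2 fold change farthest from 0, at -0.32 (edgeR adjusted p = 0.0584). The other 193 coding hosts had 14 lower and 38 higher at an unadjusted p under 0.05. DESeq2 called 7 of those 193 lower and 26 higher, and their median log2 fold change was 0.06.

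Genes of the machinery around the hosts were counted next, beside the 4.54% of all genes that changed in either direction. Of 18 snoRNP proteins and assembly factors, 1 rose, 0 fell and 17 did not pass (median log2 fold change -0.01). The 1 was Nolc1, a nucleolar chaperone of snoRNPs, with 182 ± 7.22 CPM in KO-labelled and 143 ± 7.10 CPM in WT libraries (SD, n = 3 each; log2 fold change 0.34, edgeR adjusted p = 0.0449). At an unadjusted p under 0.05, 1 of the 18 was lower and 4 were higher, and DESeq2 called 1 lower and 2 higher. Of 16 nonsense-mediated decay and exon junction factors 0 passed in either direction (median -0.0008). Rnps1 (0.46, edgeR adjusted p = 0.0932), Eif4a3 (0.33, adjusted p = 0.145) and Smg9 (-0.26, adjusted p = 0.109) were farthest from 0. At an unadjusted p under 0.05, 2 of these were lower and 3 higher, near the share of all genes (29.5% in either direction), and DESeq2 called 0 lower and 1 higher. Of 16 translation genes with a pyrimidine-tract start from outside the Rpl and Rps genes (Fau, which encodes a ribosomal protein fusion, included), 0 passed (median 0.01). Nap1l1 (0.26, edgeR adjusted p = 0.0965), Npm1 (-0.25, adjusted p = 0.0958) and Eef1d (0.18, adjusted p = 0.208) were farthest from 0. There 1 was lower and 1 higher at an unadjusted p under 0.05, and DESeq2 called 0 lower and 1 higher. Over all 5665 tested genes that are not protein-coding, 71 fell and 18 rose, with a median of -0.16.

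**Figure D3:**
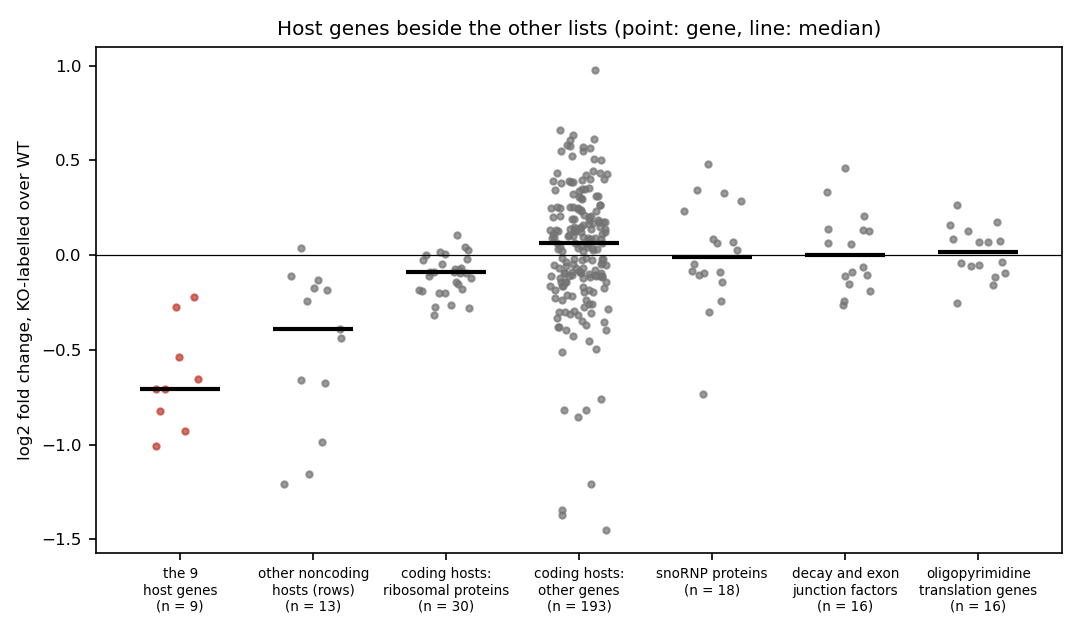
Log2 fold change (y axis, KO-labelled over WT) of each tested gene in the 9 hosts (red) and in 6 comparison lists (grey), with a black line at each median. The medians are -0.71 for the 9 hosts, -0.39 for other noncoding hosts and -0.09 for ribosomal protein hosts; of the other noncoding hosts 2 rows, of the snoRNP genes 3 and of the oligopyrimidine genes 5 stand among the coding hosts too.

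Genes that overlap the hosts or start beside them were set against them, because no source used here gives the strand setting of the counting. Znfx1, a helicase-type zinc finger gene, starts 81 bases from Zfas1 on the opposite strand and shares 82 bases with it. It had 87.2, 69.4 and 81.2 CPM in the KO-labelled libraries, against 103, 100 and 89.1 CPM in the WT libraries, and its log2 fold change of -0.30 (SE 0.10) did not pass the test (edgeR adjusted p = 0.113). Slc3a2, the heavy chain of several amino acid transporters, starts 106 bases from Snhg1 on the opposite strand, and its log2 fold change was 0.36 (edgeR adjusted p = 0.132), the other direction from that of Snhg1. Zbtb37 shares 428 bases with Gas5 on the opposite strand and had a log2 fold change of 0.14 (edgeR adjusted p = 0.550). Rcc1, the exchange factor of the GTPase Ran, spans 5592 bases of Snhg3 on the same strand and averaged 98.5 ± 2.38 CPM in KO-labelled and 83.7 ± 3.81 CPM in WT libraries (SD, n = 3 each; log2 fold change 0.23, edgeR adjusted p = 0.0774). Gm17300, an annotated lincRNA, shares 1611 bases with Snhg3 on the opposite strand. It had 30.8, 20.4 and 22.1 CPM in the KO-labelled libraries, against 33.3, 34.3 and 46.0 CPM in the WT libraries. Its groups did not overlap, and its log2 fold change of -0.63 (SE 0.19) did not pass the test (edgeR adjusted p = 0.0874). Rcc1 and Gm17300 both had more reads than Snhg3, so how reads were divided among the 3 genes bears on the level of Snhg3. Mcmdc2 shares 127 bases with Snhg6 and stood near the floor, at 0.268 ± 0.111 CPM in KO-labelled and 0.336 ± 0.147 CPM in WT libraries.

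The snoRNAs themselves could not be followed in these libraries. Of the 33 snoRNA models inside the 9 hosts, 23 had exactly 1 read in all 6 libraries, and only 5 exceeded 10 reads in any library. Such a 1 cannot be read as a level, since 326 rows of the table stood at exactly 1 in all 6 libraries and 0 rows at exactly 2. The snoRNA with most reads, Gm23201 inside Zfas1, had 49, 19 and 44 reads in the KO-labelled libraries, against 46, 23 and 42 reads in the WT libraries, which overlap. Snord87 inside Snhg6 had 17, 16 and 21 reads in the KO-labelled libraries, against 24, 15 and 36 reads in WT. Snora73b inside Snhg3 had 32, 20 and 46 reads in the KO-labelled libraries, against 40, 28 and 32 reads in WT. Snora73a, also inside Snhg3, had 6, 7 and 10 reads in the KO-labelled libraries, against 12, 6 and 17 reads in WT. Snord22 inside Snhg1 had 4, 5 and 10 reads in the KO-labelled libraries, against 21, 15 and 8 reads in WT. All 5 overlapped between groups. Mature snoRNAs carry no poly(A) tail, and the input RNA was selected for one.

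Genes whose pattern over the 6 input libraries was most like that of Zfas1 were ranked by the root mean square distance of centred log2 CPM, among 10420 genes with a mean of at least 10 CPM. The nearest were Sp140 (distance 0.08), Pde4d (0.09), the noncoding host 2410006H16Rik (0.10), Pla2g2e (0.10) and Apol9b (0.11). Of the other 8 hosts Gas5 ranked 20, Snhg5 26, Snhg12 52, Snhg8 158, Snhg3 161, Snhg1 182, Snhg6 1101 and Snhg15 3255. The points of this ranking are the same 6 libraries on which Zfas1 was selected. A near rank therefore largely restates a similar fold change and is no separate evidence of likeness.

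Peaks were next read by gene identifier from the deposited lists, which carry no replicate error, since each group has 1 list. Zfas1 had no peak in any of the 3 lists, nor had Snhg3, Snhg6, Snhg8 and Snhg12. Of the 9 hosts, 1 had an m6A peak in the KO-labelled list, 2 had one in the WT list and 3 had RIP peaks. Over all tested genes 45.0% had a KO-labelled m6A peak, 48.7% a WT m6A peak and 34.3% a RIP peak. Among tested genes that are not protein-coding, 9.85% had a KO-labelled m6A peak, 12.7% a WT m6A peak and 7.64% a RIP peak, beside 66.4%, 70.4% and 44.8% of the protein-coding snoRNA hosts. These shares cover genes of every level and were not matched to the levels of the 9 hosts. Gas5 and Snhg5, with RIP peaks, had log2 fold changes of -0.71 each and Snhg1 had -0.66. The hosts with no peak stood at -1.01 in Zfas1, -0.93 in Snhg3, -0.82 in Snhg12, -0.54 in Snhg8 and -0.27 in Snhg6, and Snhg15, with a WT m6A peak alone, stood at -0.22. The values of hosts with and without RIP peaks overlap.

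Gas5 carried an m6A peak in both lists. The WT peak (chr1:161035973-161036242, plus strand, 270 bases) holds the whole of an intronic snoRNA, Gm22357, and is printed below because it is the m6A site shared by the groups. The KO-labelled peak (chr1:161035973-161036123) covers the first 151 of these bases, 67 of them within that snoRNA. Capitals mark GGAC, a core of the m6A motif, searched on the strand of the gene, in sequence read from GENCODE M21 transcripts.
Gas5 WT m6A peak: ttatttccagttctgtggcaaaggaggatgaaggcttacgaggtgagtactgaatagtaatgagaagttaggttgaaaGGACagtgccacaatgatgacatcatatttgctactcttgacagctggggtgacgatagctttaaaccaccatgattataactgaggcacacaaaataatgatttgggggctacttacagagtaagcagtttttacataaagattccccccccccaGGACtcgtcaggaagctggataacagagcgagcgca
The KO-labelled peak holds 1 GGAC and the WT peak 2. Among unspliced peaks of 150 to 210 bases in the KO-labelled list 61.0% held GGAC, and among those of 240 to 300 bases in the WT list 74.5% did. None of the 25-base stretches of either peak was found in transcripts of another gene, snoRNA genes aside. The authors' scores, read as p-values, were 4e-17 for the KO-labelled peak and 3.2e-17 for the WT peak.

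Snhg15 had an m6A peak in the WT list, none in the KO-labelled list, and no RIP peak. The absence of a KO-labelled peak was not tested, and Snhg15 RNA averaged 22.3 ± 5.97 CPM in KO-labelled and 25.9 ± 6.53 CPM in WT libraries (SD, n = 3 each).

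YTHDF2 RIP peaks lay in Gas5 (4), Snhg1 (3) and Snhg5 (3) and covered 4850 bases in all. The Gas5 RIP peak with the lowest score (1.6e-33, 807 bases, chr1:161035973-161036779) begins at the same base as the m6A peaks and contains them whole. The other 9 RIP peaks overlap no m6A peak, and Snhg1 and Snhg5 have none. Of the 10 RIP peaks, 6 hold whole annotated snoRNAs, 11 of them together, 4 of these peaks in Gas5 and 2 in Snhg1. In the whole RIP list only 8 of 23372 peaks hold a whole snoRNA, against 1 of 17428 in the KO-labelled and 3 of 19236 in the WT m6A list. Peaks could hold a snoRNA only where an exon model spans it: 134 of 1507 annotated snoRNA models lie within an exon of another gene, and 30 of these are within the 9 hosts, 10 in Gas5, 8 in Snhg1, 5 in Snhg12 and 3 in Zfas1. Zfas1 and Snhg12, with such snoRNAs too, had no RIP peak. RIP libraries were made from cell lysate, and whether the signal came from spliced host RNA, unspliced RNA or snoRNAs was not tested.

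**Figure D4:**
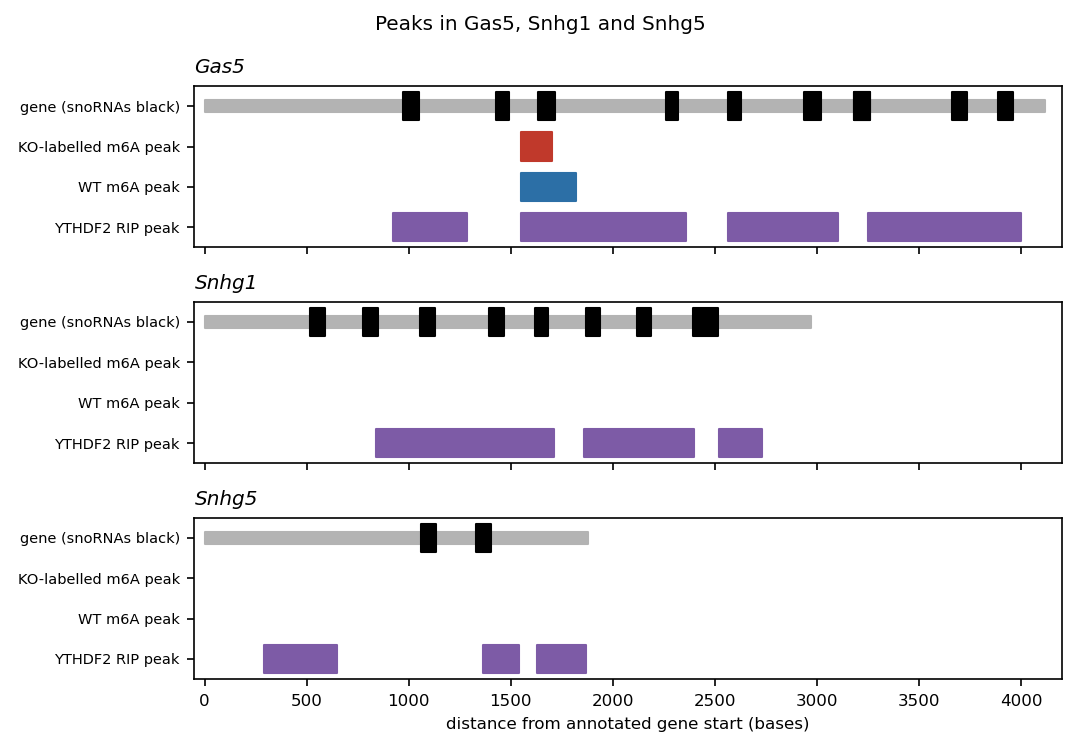
Position of peaks (x axis, bases from the annotated gene start, in the direction of transcription) in Gas5, Snhg1 and Snhg5: KO-labelled m6A (red), WT m6A (blue) and YTHDF2 RIP (purple), with snoRNA genes in black on the gene body in grey. RIP peaks span most snoRNAs of Gas5 and Snhg1, and m6A peaks stand in Gas5 alone of the 3.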

How the data were processed

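For the 6 input libraries the authors deposited gene-level read counts, unnormalized whole numbers with 0 columns of other samples, and they deposited 1 peak list each for KO-labelled m6A, WT m6A and YTHDF2 RIP. Per the submitters' processing notes, HISAT2, HOMER, ChIPseeker and mm10 were used, with no role stated. No source used here names the counter, its strand setting or the peak caller. The deposited peak scores were read as p-values, from their range alone, and how a list combined its libraries is not stated. Signal per pull-down library was not analysed here.

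Counts were tested with edgeR 4.0.16 (R 4.3.3; TMM factors, filterByExpr, quasi-likelihood test, 3 against 3 libraries, no covariate, Benjamini-Hochberg adjustment at 0.05). On simulated counts with 200 genes changed, it recovered 74% of 2-fold and 98% of 4-fold changes, and 16 of 188 calls were false. With no gene changed it made 0 calls. The simulation held no outlying library such as KO-labelled replicate 1. CPM use TMM-scaled sizes, and a count of 0 allows up to 3 counts, 0.0589 to 0.0660 CPM, for counting error only. DESeq2 1.42.0, other scalings, no filter, a replicate block and leaving out each library were alternatives. Of the table's 55401 rows, 55141 were in GENCODE M21 by identifier. Protein-coding hosts are genes whose span holds a snoRNA model on the same strand. Starts came from RefSeq (GRCm38.p6).

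The members and lists were chosen with earlier results of these data known. Named were the 9 hosts, the 5 genes nearest Zfas1, and of each list up to 6 genes past the threshold or else the 3 with the largest fold change. Genes named outside this rule are said to be so or illustrate values near 0. The position and sequence of the Snhg15 m6A peak are not reported here.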

Additional observations from a re-analysis of the deposited data

How the results depend on the processing

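Over 11 alternatives for each of the 9 hosts, all 99 log2 fold changes were below 0. The alternatives reuse the same 6 libraries, and 11 of the values belong to Zfas1, selected for its fall. Snhg15 came as near to 0 as -0.01, without WT replicate 1 (edgeR adjusted p = 0.980). Of these, 62 kept their side of the threshold (for Zfas1, moved by less than the spread), 33 lost the call and 4 gained one. Zfas1 ran between -1.09 and -0.97. Host levels on total counts moved by less than 1 SD in all 18 cases. The log2 fold change of all genes had a median of -0.09 with upper-quartile factors, and the 5 calls there were as in the report.

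Hosts called lower, of 8, numbered 7 with DESeq2, 1 with no filter on low counts (Gas5) and 0 to 7 when leaving out a library. The replicate block, whose numbers gave correlations of 0.05, 0.12 and 0.05 between same-numbered libraries and so were not taken to pair them, called 0 of 8 (adjusted p from 0.0514 to 0.176) and 45 genes higher and 26 lower; each library correlated best with its own number, a hint from the data. Over all genes, 568 were higher and 293 lower in the main test. DESeq2 gave 2134 higher and 1134 lower, upper-quartile factors 348 higher and 395 lower (the lower calls then outnumbering the higher), no filter 70 higher and 41 lower, and leaving out a library 0 to 3782 higher and 0 to 3144 lower. The cause was not tested.

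Other noncoding hosts falling (4) became 2 with no filter, 1 with the block and 0 to 9 on leaving out a library. SnoRNP genes falling (0) became 1 with DESeq2, 1 with upper-quartile factors and 0 to 4 on leaving out a library, and those rising (1) became 2 with DESeq2, 0 with upper-quartile factors, no filter or the block, and 0 to 5. Decay factors falling (0) became 0 to 2 on leaving out a library, and those rising (0) became 1 with DESeq2 and 0 to 3. Pyrimidine-tract translation genes falling (0) became 0 to 1 on leaving out a library, and those rising (0) became 1 with DESeq2 and 0 to 2. Protein-coding hosts falling (3) became 10 with DESeq2, 0 with no filter, 1 with the block and 0 to 35, and those rising (2) became 26 with DESeq2, 1 with upper-quartile factors, 0 with no filter or the block, and 0 to 52. The cause was not tested.

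All member peaks had a score of at most 1e-05. RIP peaks overlapped by a WT m6A peak numbered 1, and 0 where the overlap had to reach 50% of the RIP peak. Starts with a C and pyrimidines numbered 0 when 6 were asked for in place of 4, and 5 within 10 bases, a window chosen after seeing the data. Few snoRNA rows exceed 10 reads, which limits what they show.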
